A study of Homo sapiens with 8 samples.

Results

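The 4 libraries described here came from leukaemia cells that carried an empty vector, the control arm of a series of 8 RNA sequencing libraries. They were chosen from the labels alone, which give their genotype as the empty vector, call them MOCK and number them replicates 1 to 4. The labels name the line THP1, call it an acute myeloid leukaemia cell line, and state that all cultures were grown in a Tet-approved serum and received doxycycline at 2 µg/mL. The other 4 libraries, from cells with an RRM2 mutant construct and the same drug, were not compared here. The labels give neither the promoter of the vector nor whether the cells were a clone or a pool. Separate cultures are not mentioned either, so the spread between the 4 replicates may be technical. Libraries of cells without a vector or without doxycycline were not analysed here, so a baseline level means the level with both.

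THP1 is commonly described as a monocytic line with a fusion of KMT2A and MLLT3 and without the CDKN2A gene. In blood formation, SPI1 and CEBPA are known for directing progenitors towards granulocytes and monocytes, while GATA2 and GATA1 are known for mast cell, megakaryocyte and erythroid fates. Proteases of the azurophil granule are transcribed mainly in promyelocytes and are silenced as neutrophils and monocytes mature. Leukaemia lines are arrested along these paths, and the lineage genes they transcribe are the usual means of describing them.

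Stranded, poly(A)-selected libraries held between 10994255 and 11686152 counts, 45264011 in all. Levels are given as the authors' RPKM (reads per kilobase of exon, scaled to the counted reads of the library), as mean ± SD over the 4 libraries, and a gene was called expressed when it reached 1 RPKM in all 4. By that rule 12849 of 34618 genes (37.1%) were expressed, and 9896 (28.6%) had no count in any library. Among genes annotated as protein-coding, 10629 of 19163 (55.5%) were expressed. Counts of list members below are to be read beside both shares of expressed genes. The median coefficient of variation of an expressed gene was 7.86%. The libraries were not equally alike. Replicates 1 and 3 differed by a median of 6.57% per expressed gene and replicates 2 and 4 by 6.28%, whereas the other pairs differed by 9.602% to 11.97%. Many genes followed this grouping, also among those given below only as mean ± SD, such as CD52, GAPDH, EGR1, CCL2 and CYBA. Its origin was not tested. Genes named below are the highest of each list, the members without a count and the defining markers of each lineage, and any others were chosen after their values were seen. For a gene without a count, the limit given is the mean RPKM that 3 counts over the 4 libraries would make, which covers counting error only.

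The 6 marker genes were given with this group of libraries, and among them only CDKN2A served as a check of the label. The levels of the others are descriptive. Granule and mast cell genes stood near the top of the ranking, CDKN2A was plainly present, and CD14 was low. PRTN3 (ENSG00000196415, hg19 chromosome 19 at 840963 to 848175) was at 2295, 1964, 2193 and 1869 RPKM in replicates 1 to 4, a mean of 2080.4 ± 198 and rank 17. PRTN3 encodes proteinase 3, a serine protease of the azurophil granule, and the 4 libraries lay close together, with replicates 1 and 3 above replicates 2 and 4. MPO (ENSG00000005381, hg19 chromosome 17 at 56347217 to 56358296) was at 362, 295, 373 and 313 RPKM in replicates 1 to 4, a mean of 336 ± 37.8 and rank 67. MPO encodes myeloperoxidase, which makes hypochlorous acid in the same granules, and the same 2 replicates were the higher ones. CPA3 (ENSG00000163751, hg19 chromosome 3 at 148583043 to 148614983) was at 226, 205, 221 and 214 RPKM in replicates 1 to 4, a mean of 216 ± 8.99 and rank 105. CPA3 encodes carboxypeptidase A3, a mast cell granule protease, with little spread between the libraries. GATA2 (ENSG00000179348, hg19 chromosome 3 at 128198270 to 128212028) was at 130.2, 109, 135 and 112 RPKM in replicates 1 to 4, a mean of 122 ± 12.9 and rank 219. GATA2, a zinc finger factor of stem cells and mast cells, again stood higher in replicates 1 and 3.

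CDKN2A (ENSG00000147889, hg19 chromosome 9 at 21967751 to 21995300) was at 12.4, 12.02, 10.1 and 10.6 RPKM in replicates 1 to 4, a mean of 11.3 ± 1.11 and rank 4754. CDKN2A encodes the cell cycle inhibitor p16 and, in another reading frame, p14ARF, and its 2254 counts came from all 4 libraries. The data therefore go against the common description of the line on this gene. CDKN2B-AS1, which overlaps CDKN2A on the opposite strand, was at 0.456 ± 0.0851 RPKM, far below it. CD14 (ENSG00000170458, hg19 chromosome 5 at 140011313 to 140013286) was at 4.9, 4.74, 5.79 and 5.06 RPKM in replicates 1 to 4, a mean of 5.12 ± 0.462 and rank 8532. CD14, the lipopolysaccharide co-receptor of monocytes, was expressed in every library but at a lower rank than any of the other 5 genes. The cells are therefore called by their label and vector here, and no other line or cell type is assigned to them. The plot of level against rank places these genes on the curve of all measured genes.

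**Figure D1:**
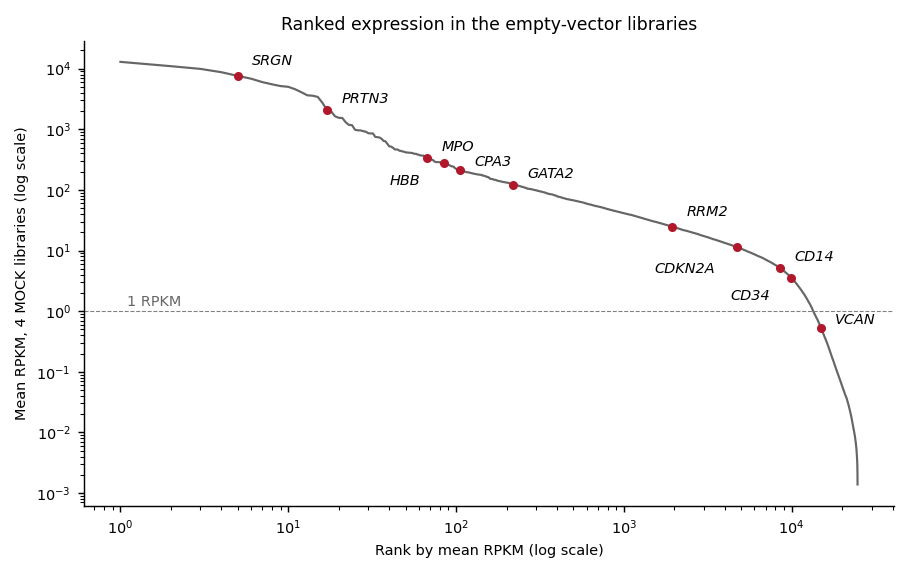
Mean RPKM of every gene with a count (grey line, log scale) against its rank (log scale), with 11 named genes as red points and the threshold of 1 RPKM as a dashed line. SRGN lies at rank 5, PRTN3 at rank 17, MPO at rank 67 and CPA3 at rank 105, with CDKN2A at rank 4754 and CD14 at rank 8532, while VCAN falls under the threshold.

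The promoters of 4 genes are printed to show the DNA in front of a granule gene, a mast cell gene, an erythroid gene and a monocyte gene that were expressed at very different levels. The 4 genes were picked for printing with their levels in view. The sequences are RefSeq's, from build GRCh38.p14, and cover the 250 bases before the annotated start, read 5′ to 3′ on the gene's strand: PRTN3 at chr19:840749-840998 on the plus strand, CPA3 at chr3:148865046-148865295 on the plus strand, ALAS2 at chrX:55030978-55031227 on the minus strand and CD14 at chr5:140633176-140633425 on the minus strand. Capitals mark AGATAA, a form of the motif bound by GATA factors, and GAGGAA, a form of the motif bound by SPI1, each on either strand (TTATCT and TTCCTC in reverse).
PRTN3: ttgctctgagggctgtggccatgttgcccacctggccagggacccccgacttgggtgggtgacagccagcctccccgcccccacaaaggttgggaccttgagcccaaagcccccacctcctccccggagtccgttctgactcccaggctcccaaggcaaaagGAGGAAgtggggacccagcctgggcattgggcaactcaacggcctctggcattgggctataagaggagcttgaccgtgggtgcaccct
CPA3: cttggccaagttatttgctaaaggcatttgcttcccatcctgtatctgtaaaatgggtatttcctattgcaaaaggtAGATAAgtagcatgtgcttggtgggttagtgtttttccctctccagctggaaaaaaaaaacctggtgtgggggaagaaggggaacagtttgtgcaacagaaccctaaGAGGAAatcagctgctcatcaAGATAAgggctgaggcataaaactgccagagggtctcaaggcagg
ALAS2: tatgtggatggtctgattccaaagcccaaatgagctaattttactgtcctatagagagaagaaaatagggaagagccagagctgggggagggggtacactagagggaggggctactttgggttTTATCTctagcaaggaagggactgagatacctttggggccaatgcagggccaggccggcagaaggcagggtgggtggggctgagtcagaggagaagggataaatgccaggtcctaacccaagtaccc
CD14: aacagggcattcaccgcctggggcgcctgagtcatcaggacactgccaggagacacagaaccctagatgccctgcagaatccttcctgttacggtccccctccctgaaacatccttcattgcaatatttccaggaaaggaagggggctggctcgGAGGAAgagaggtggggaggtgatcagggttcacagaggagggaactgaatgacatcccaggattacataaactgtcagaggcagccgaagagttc
The granule gene PRTN3 held GAGGAA starting 88 bases before the start, and CD14 held it 96 bases before. CPA3 held AGATAA at 173 and 45 bases before the start, with GAGGAA at 66 between them. ALAS2, at 14.1 ± 0.967 RPKM, held AGATAA on the opposite strand at 127 bases before. Of 35116 promoter windows of this length, 9.17% held AGATAA and 23.6% held GAGGAA. The former was found in 8 of the 13 erythroid genes with a window, 5 of 15 mast cell genes, 5 of 30 monocyte genes and 1 of 9 granule genes. The latter was found in 20 of 30 monocyte genes, 6 of 15 mast cell genes, 3 of 9 granule genes and 2 of 13 erythroid genes. A listed gene was counted if any of its windows held the motif, whereas the percentages are over single windows. The list counts and the percentages are therefore not in the same unit. These matches describe the letters in the windows and say nothing of which factor is bound in these cells.

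Transcripts of the mitochondrial genome led the ranking and were followed by granule and ferritin transcripts. The 13 mitochondrial protein genes took 6.59% to 9.51% of the counts of a library, and MT-CO2, a subunit of cytochrome c oxidase, was first at 12934 ± 1863 RPKM. The 10 genes with the most counts in a library, which need not be the highest by RPKM, took 7.46% to 9.99% of its counts. The 1000 genes with the most counts took 47.4% to 49.4%. SRGN (ENSG00000122862, hg19 chromosome 10 at 70847862 to 70864567) was at 7207, 7980.4, 7101 and 8057 RPKM in replicates 1 to 4, a mean of 7586 ± 502 and rank 5. SRGN encodes serglycin, the proteoglycan that holds proteases inside granules, and it had the highest mean of all genes of the nuclear genome. Ferritin light chain, FTL, followed at 5011 ± 250.4 RPKM and ferritin heavy chain, FTH1, at 1636 ± 113 RPKM, so that both subunits of the iron store stood among the top transcripts. Other leading genes were ACTB at 1979.5 ± 66.8 RPKM, the actin-binding peptide gene TMSB10 at 1545 ± 179 RPKM, GAPDH at 1536 ± 128 RPKM and the metalloproteinase inhibitor TIMP1 at 1306 ± 137 RPKM. LAPTM5, a lysosomal membrane protein of blood cells, reached 958 ± 82.4 RPKM, and CALR, a chaperone of the endoplasmic reticulum, 929.8 ± 33.3 RPKM.

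A few mitochondrial genes varied more than the rest. MT-ATP8 gave 1372, 505, 1547 and 503 RPKM in replicates 1 to 4 (mean 982 ± 557). The values of MT-ND6 in replicates 1 to 4 were 3426, 5524, 2652 and 4687 RPKM (mean 4072 ± 1281). MT-ATP8 was high in replicates 1 and 3 and low in replicates 2 and 4, and MT-ND6 was ordered the other way round, with no overlap in either case. MT-ATP8 overlaps MT-ATP6, and MT-ND6 is the gene read from the other strand of the mitochondrial genome. The 84 cytosolic ribosomal protein genes, of which 79 were expressed, took 1.92% to 2.21% of the counts. Many of them have near-identical copies elsewhere in the genome, as do the translation factor EEF1A1, at 169.7 ± 12.2 RPKM, and the prolyl isomerase PPIA, at 35.8 ± 0.586 RPKM, so their levels are uncertain. Among the 60 highest entries, 11 outside the mitochondrial genome were not annotated as protein-coding. They include GPX1, listed as a polymorphic pseudogene, and an entry without a type. Of the 11, 9 lie opposite another gene, among them ENSG00000269968 opposite GAPDH, ENSG00000273149 opposite TPT1 and ENSG00000257764 opposite LYZ. Whether counting used the strand is not given in the sources used here, so reads of such pairs cannot be told apart.

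Genes of the azurophil granule and the promyelocyte had the highest median of the lineage lists. It was 274 RPKM, against 0.184 RPKM for all genes, noncoding ones included. Of 17 genes 16 were expressed, against 37.1% of all genes and 55.5% of protein-coding genes. The list is not confined to granule proteins, and RNASE2 is also in the eosinophil list. Lysozyme, LYZ, a bactericidal enzyme shared with monocytes, stood at 961 ± 76.8 RPKM and RNASE2, an antiviral ribonuclease, at 862 ± 42.4 RPKM. For ELANE, replicates 1 to 4 gave 474, 429.9, 489 and 463 RPKM (mean 464 ± 25.1). ELANE encodes neutrophil elastase, and its values lay below RNASE2 and above AZU1 in each of the 4 libraries. AZU1, the antimicrobial azurocidin, was at 416 ± 9.55 RPKM, the serine protease PRSS57 at 349.96 ± 27.7 RPKM and cathepsin G, CTSG, at 274 ± 17.2 RPKM. Down this order LYZ and RNASE2, and PRSS57 and MPO, overlapped between libraries, while ELANE, AZU1 and PRSS57 did not overlap with one another. The ribonuclease RNASE3 reached 135 ± 4.28 RPKM. The list was not complete: BPI, a protein that binds bacterial lipopolysaccharide, was at only 2.16 ± 0.0465 RPKM, and the defensin DEFA4 had no count, which allows up to 0.107 RPKM.

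Genes of later neutrophils, granule proteins and surface receptors among them, were mostly under the threshold. Of 16 genes 6 were expressed (37.5%), against 37.1% of all genes and 55.5% of protein-coding genes. The median was 0.388 RPKM. MMP9 stood at 359, 274, 342 and 266 RPKM in the 4 replicates, in their order (mean 310.1 ± 47.1). MMP9, gelatinase B, was the exception and is also made by monocytes. Lactoferrin, LTF, was at 0.519 ± 0.157 RPKM and CAMP, the cathelicidin, at 0.327 ± 0.182 RPKM. OLFM4 and ALPL had no count, with upper limits of 0.0229 and 0.022 RPKM.

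Monocyte and macrophage genes were present but at modest levels: 32 of 40 were expressed, with a median of 6.81 RPKM. The highest after LYZ were the signalling adaptors TYROBP at 219.7 ± 13.7 RPKM and FCER1G at 173 ± 28.6 RPKM, followed by the lysosomal protease CTSS at 64.2 ± 3.96 RPKM, AIF1 at 55.7 ± 8.15 RPKM and the integrin ITGAX at 49.4 ± 1.34 RPKM. FCER1G and TYROBP are used by many myeloid cells, mast cells included. CSF1R, the receptor that maintains monocytes and macrophages, was at 18.6 ± 1.09 RPKM. Of the defining monocyte genes, FCN1 was at 5.04 ± 0.56 RPKM, the haemoglobin scavenger receptor CD163 at 3.97 ± 0.537 RPKM and the proteoglycan VCAN at 0.535 ± 0.0628 RPKM, so that VCAN did not reach the threshold. The calprotectin subunits were unequal. S100A9 gave 20.6, 16.3, 25.6 and 17.7 RPKM in replicates 1 to 4 (mean 20.03 ± 4.12). Replicates 1 and 3 were the higher ones, and the partner S100A8 was at 0.944 ± 0.194 RPKM. CD68, a lysosomal glycoprotein of macrophages, gave 0.302 ± 0.144 RPKM from 30 counts. It overlaps another entry, ENSG00000264772, on the same strand, and how the counting treated such overlaps is not stated, so its low value is uncertain.

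**Figure D2:**
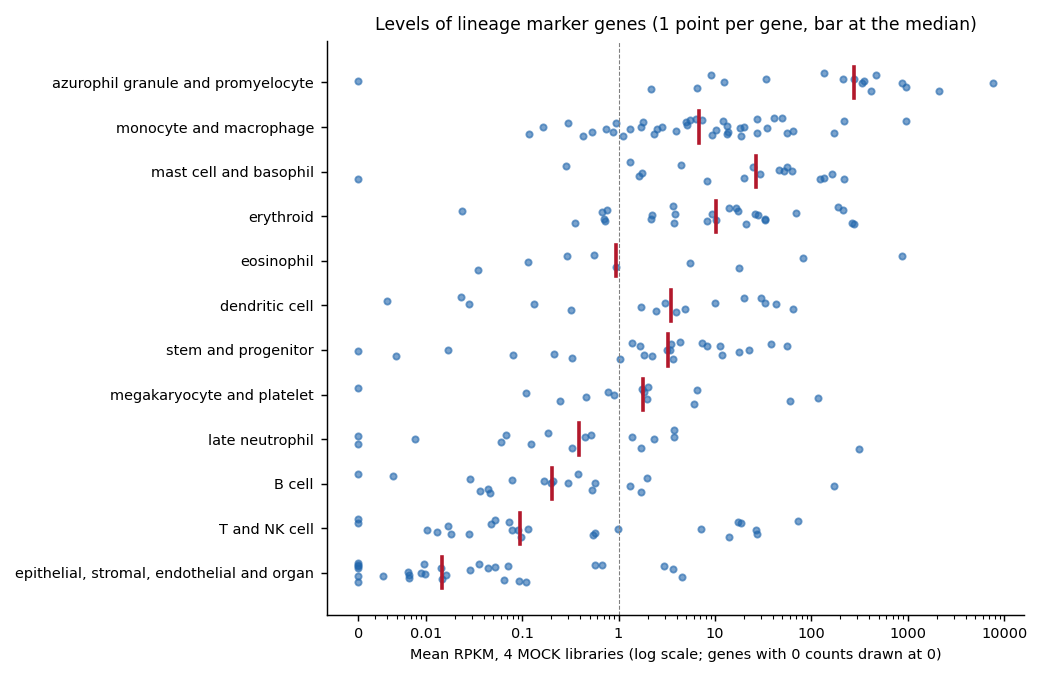
Mean RPKM over the 4 MOCK libraries (log scale) of each gene in 12 lineage lists, 1 point per gene, with a red bar at the list's median and a dashed line at 1 RPKM; genes without a count are drawn at 0. The granule list has the highest median, 274 RPKM, and the lists for B cells, T and NK cells and non-blood tissues have medians under 1 RPKM, as do those for late neutrophils and eosinophils.

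Mast cell and basophil genes formed the next programme. Of 18 genes, 13 were expressed, with a median of 26.9 RPKM. After CPA3 came HDC, the enzyme that makes histamine, whose values were 161, 158, 164 and 169 RPKM in replicates 1 to 4. SIGLEC6, an inhibitory lectin of mast cells, was at 134 ± 9.36 RPKM, the interleukin 33 receptor IL1RL1 at 63.4 ± 5.69 RPKM and the stem cell factor receptor KIT at 55.6 ± 1.71 RPKM. CPA3, HDC and SIGLEC6 did not overlap with one another, while SIGLEC6 and GATA2 overlapped and KIT exceeded the tryptase gene TPSAB1 in 3 of 4 libraries. The values of TPSAB1 in replicates 1 to 4 were 55.5, 51.03, 52.9 and 47.1 RPKM (mean 51.6 ± 3.52). For TPSB2, replicates 1 to 4 gave 34.2, 18.9, 28.1 and 17.5 RPKM (mean 24.7 ± 7.89). For both tryptase genes replicates 1 and 3 exceeded replicates 2 and 4. The tryptase genes are near-identical neighbours, so reads may be divided wrongly between them. Of the high-affinity IgE receptor, the alpha chain FCER1A was at 20.2 ± 1.36 RPKM and the beta chain MS4A2 at 1.62 ± 0.594 RPKM. Chymase, CMA1, was at 0.285 ± 0.084 RPKM, and MRGPRX2, a peptide receptor of connective tissue mast cells, had no count, with a limit of 0.0326 RPKM.

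Of 9 eosinophil genes 4 were expressed (44.4%), against 37.1% of all genes and 55.5% of protein-coding genes. CLC, the crystal-forming lectin galectin-10, was at 81.6 ± 3.19 RPKM and the eosinophil peroxidase EPX at 17.7 ± 1.58 RPKM, besides RNASE2, which granule cells also make. PRG2, the major basic protein, was at 5.55 ± 1.03 RPKM, and its homologue PRG3 at 0.942 ± 0.109 RPKM. The eotaxin receptor CCR3 was at 0.115 ± 0.0376 RPKM and the interleukin 5 receptor IL5RA at 0.551 ± 0.114 RPKM, both under the threshold.

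Erythroid genes were transcribed in all 4 libraries. Of 27 genes 21 were expressed, with a median of 10.2 RPKM. Among the members with a mean of at least 10 RPKM, the globin genes HBD, HBA1, HBB and HBA2 differed most between libraries. HBB stood at 195, 297, 248 and 355 RPKM in the 4 replicates, in their order (mean 274 ± 68.1). HBD gave 134, 372, 149.9 and 387 RPKM in replicates 1 to 4 (mean 261 ± 137). The values of HBA1 in replicates 1 to 4 were 274, 137, 232 and 119.7 RPKM (mean 191 ± 74.5). HBB, HBD and HBA1 encode the adult beta, delta and alpha globin chains. HBB and HBD were higher in replicates 2 and 4, whereas HBA1 was higher in replicates 1 and 3, without overlap between these pairs for any of the 3 genes. The order of HBB, HBD and HBA1 was therefore not the same in all libraries. For HBA2, replicates 1 to 4 gave 40.4, 28.7, 36.7 and 25.7 RPKM (mean 32.9 ± 6.83). HBA2, which encodes the same alpha chain as HBA1 and whose reads can be assigned to either, followed HBA1. The fetal globin genes HBG2, at 33.1 ± 3.7 RPKM, and HBG1, at 20.9 ± 2.39 RPKM, and the embryonic HBE1, at 17.4 ± 1.42 RPKM, were lower. HBE1 has a span that overlaps HBG2 on the same strand.

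Around the globins, the transferrin receptor TFRC was at 212 ± 12.9 RPKM, which dividing cells of any kind also need. GATA1 stood at 73.8, 63.6, 70.6 and 67.2 RPKM in the 4 replicates, in their order (mean 68.8 ± 4.41). GATA1, the main erythroid factor, and KLF1, the erythroid Krüppel factor, at 25.99 ± 0.695 RPKM, varied by less than HBB, HBD and HBA1. ALAS2, the erythroid enzyme of haem synthesis, was at 14.1 ± 0.967 RPKM, while its housekeeping counterpart ALAS1 was at 281 ± 1.37 RPKM. The erythropoietin receptor EPOR was at 10.2 ± 1.03 RPKM and the membrane exchanger SLC4A1 at 16.6 ± 1.27 RPKM. The alpha-like globin HBM was near 0, at 0.0239 ± 0.0479 RPKM.

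**Figure D3:**
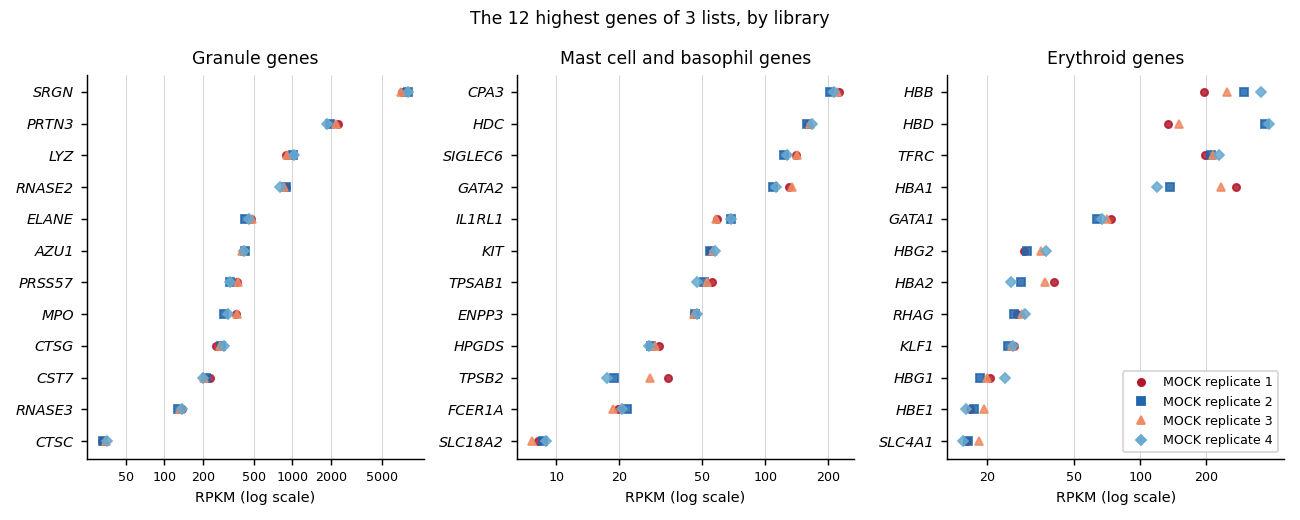
RPKM (log scale) of the 12 highest genes of the granule, mast cell and erythroid lists, 1 symbol per MOCK library. Symbols of most genes lie close together, whereas HBD spans 134 to 387 RPKM and HBA1 119.7 to 274 RPKM, with replicates 1 and 3 apart from replicates 2 and 4.

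Megakaryocyte genes were fewer. Of 14 genes 8 were expressed (57.1%), near the 55.5% of all protein-coding genes. PLEK, a substrate of protein kinase C found in platelets and leukocytes, led at 118 ± 9.11 RPKM. The platelet integrin ITGA2B followed at 59.7 ± 2.29 RPKM. The platelet chemokine PPBP was at 6.56 ± 1.15 RPKM and its neighbour PF4 at 0.109 ± 0.073 RPKM, from 3 counts. GP1BB had no count but overlaps SEPTIN5 on the same strand, so this 0 is uncertain. With a threshold of 2 RPKM in place of 1, 4 of the 14 were expressed, since several members lay between the 2 levels.

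Stem and progenitor genes were divided. Of 24 genes 17 were expressed, with a median of 3.28 RPKM. KIT led the list, followed by LAPTM4B at 38.1 ± 1.45 RPKM, the cytokine signalling inhibitor SOCS2 at 22.5 ± 0.336 RPKM, the protease inhibitor SPINK2 at 17.9 ± 2.89 RPKM and the receptor kinase FLT3 at 11.2 ± 0.985 RPKM. CD34 gave 4.01, 3.17, 3.4 and 3.52 RPKM in replicates 1 to 4 (mean 3.53 ± 0.352). CD34, the usual surface marker of these cells, was thus present at a low level in all libraries. MEIS1, a partner of HOXA9 in leukaemia, was at 1.02 ± 0.115 RPKM, on the threshold. HLF, at 0.0806 ± 0.037 RPKM, and MECOM, at 0.00491 ± 0.00567 RPKM, were near 0, and THY1 had no count, with a limit of 0.0112 RPKM.

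Of 16 dendritic cell genes 11 were expressed, with a median of 3.496 RPKM. The interleukin 3 receptor chain IL3RA, at 64.2 ± 6.44 RPKM, the lymph node homing receptor CCR7, the lysosomal LAMP3, at 33.3 ± 2.57 RPKM, and CD83, at 29.7 ± 0.756 RPKM, led this list. The values of CCR7 in replicates 1 to 4 were 47.7, 39.9, 47.5 and 36.96 RPKM (mean 43.01 ± 5.44). Replicates 1 and 3 were above replicates 2 and 4 for CCR7. CLEC10A, at 9.97 ± 0.491 RPKM, CD1A, at 4.93 ± 0.579 RPKM, and CD1C, at 2.43 ± 0.438 RPKM, which mark subsets of these cells, were also expressed. Other subset markers were near 0: CLEC9A was at 0.0232 ± 0.0294 RPKM from 3 counts, XCR1 at 0.00396 ± 0.00792 RPKM from 1 count and CLEC4C at 0.0282 ± 0.0326 RPKM.

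Lymphoid genes were mostly low or without a count, with a few exceptions at high level. Of 18 B cell genes 4 were expressed and the median was 0.205 RPKM. For IGLL1, replicates 1 to 4 gave 174, 168, 179 and 164 RPKM (mean 171 ± 6.52). IGLL1, a part of the surrogate light chain of early B cells, stood far above every other member, of which CD79A was next at 1.98 ± 0.358 RPKM. PAX5, the B lineage factor, was at 0.0789 ± 0.0149 RPKM, and MS4A1, which encodes CD20, had no count, with a limit of 0.0136 RPKM. At a threshold of 2 RPKM only IGLL1 of the 18 was expressed.

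Of 24 T and NK cell genes 7 were expressed, with a median of 0.0947 RPKM. These were the adhesion receptor CD96 at 73.2 ± 0.899 RPKM, NKG7, a granule membrane protein, at 27.2 ± 2.77 RPKM, perforin, PRF1, at 26.8 ± 2.19 RPKM, CD3D at 18.7 ± 1.99 RPKM, granzyme B, GZMB, at 17.1 ± 1.09 RPKM, and the receptors IL7R at 13.99 ± 0.576 RPKM and IL2RB at 7.24 ± 0.805 RPKM. CD3D stood at 17.6, 21.05, 16.7 and 19.7 RPKM in the 4 replicates, in their order (mean 18.7 ± 1.99). The other chains of the T cell receptor complex did not accompany CD3D: CD3E was at 0.116 ± 0.0496 RPKM, CD3G at 0.017 ± 0.0215 RPKM and CD247 at 0.0282 ± 0.0564 RPKM. CD2 was at 0.0785 ± 0.0286 RPKM, and LCK, the kinase that starts T cell receptor signalling, and GZMA had no count, with limits of 0.0199 and 0.0741 RPKM.

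Genes of tissues other than blood set the lower end of the scale. Of 29 genes of epithelial, stromal, endothelial and organ cells 3 were expressed, with a median of 0.0149 RPKM. They were KRT18 at 4.59 ± 0.797 RPKM and KRT8 at 2.99 ± 0.0682 RPKM, which encode paired keratins of simple epithelia, and the melanosome gene PMEL at 3.66 ± 0.465 RPKM, which overlaps CDK2 on the opposite strand. KRT18 and KRT8 overlap each other on opposite strands. EPCAM gave 1 count in the 4 libraries together, COL1A1 was at 0.0518 ± 0.0189 RPKM, and KRT19, KRT5, DCN, TTR, INS and UMOD had no count. Whole families were counted by symbol after the data were seen. No count was found for 287 of 349 olfactory receptor genes, 85 of 92 keratin-associated protein genes and 34 of 38 beta defensin genes. Of all protein-coding genes, 2839 of 19163 had no count. A single olfactory receptor, OR2W3, was expressed, at 1.35 ± 0.131 RPKM. Other families were mixed: 7 of 44 collagen genes were expressed, led by COL6A1 at 43.6 ± 3.29 RPKM, and 4 of 55 keratin genes, led by KRT79 at 21.3 ± 1.43 RPKM. By contrast 338 of 464 genes with a ZNF symbol were expressed.

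Factors of several blood lineages were transcribed side by side. Of 95 haematopoietic transcription factor genes 80 were expressed, with a median of 10.3 RPKM. SPI1 gave 158, 124, 146 and 117 RPKM in replicates 1 to 4 (mean 136 ± 18.9). SPI1, which encodes PU.1, was the highest and stood above GATA2 in each library, although the ranges of these genes overlapped. NFE2, a factor of mast cells, platelets and red cells, was at 108 ± 3.74 RPKM, EGR1, an early response factor, at 97.9 ± 14.5 RPKM, MYC at 96.1 ± 3.06 RPKM and MYB, a factor of immature cells, at 93.2 ± 1.8 RPKM. From NFE2 to MYB, each neighbour overlapped the next, and their order differed between libraries. LDB1, which bridges GATA1 and LMO2 complexes, was at 77.5 ± 2.99 RPKM. The values of CEBPA in replicates 1 to 4 were 66.6, 64.6, 73.7 and 69.7 RPKM (mean 68.6 ± 3.98). CEBPA and GATA1, at 68.8 ± 4.41 RPKM, could not be ordered, since their means differed by less than the spread and GATA1 was the higher in only 1 of 4 libraries. Bulk libraries cannot tell whether the same cells carried both or a share of cells carried each, and fewer cells of a type and less RNA per cell cannot be told apart.

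Further down were GFI1 at 46.2 ± 1.36 RPKM, LMO2 at 35.1 ± 3.44 RPKM and RUNX1 at 23.8 ± 1.69 RPKM. The monocyte factors IRF8, at 3.96 ± 0.638 RPKM, and KLF4, at 1.1 ± 0.106 RPKM, ranked below them. GATA3, a T cell factor, gave 0.02003 ± 0.0253 RPKM from 3 counts, and EBF1, a B cell factor, 0.0467 ± 0.018 RPKM. All 45 general and inducible factors were expressed, with a median of 22.3 RPKM, led by the RNA and DNA binding protein YBX1 at 249 ± 19.1 RPKM. For HMGA1, replicates 1 to 4 gave 233, 167, 225 and 165 RPKM (mean 197 ± 36.9). HMGA1, an architectural chromatin protein, was the second, and its values in replicates 1 and 3 were above those in replicates 2 and 4. JUNB followed at 106 ± 9.02 RPKM, HMGB2 at 105 ± 13.3 RPKM, JUND at 96.2 ± 4.58 RPKM and ATF4, the factor of the integrated stress response, at 88.8 ± 5.51 RPKM.

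**Figure D4:**
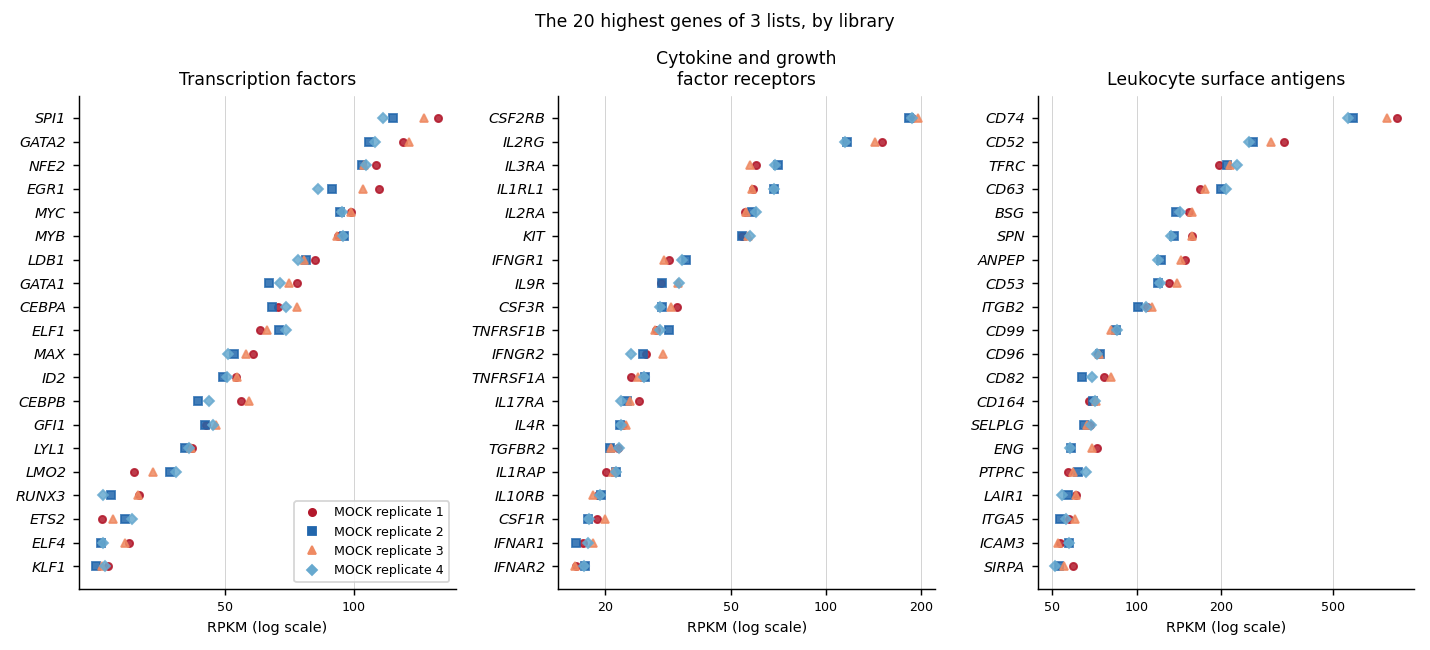
RPKM (log scale) of the 20 highest haematopoietic transcription factors, cytokine and growth factor receptors and leukocyte surface antigens, 1 symbol per MOCK library. SPI1, CSF2RB and CD74 lead their lists, and the libraries of CD74 span 565 to 849 RPKM.

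Expression along the HOX clusters, which encode positional and stem cell factors, was confined to the A and B clusters among the 39 genes measured. In the A cluster 8 of 11 genes were expressed. HOXA9 stood at 38.7, 40.4, 40.3 and 37.4 RPKM in the 4 replicates, in their order (mean 39.2 ± 1.45). HOXA9, a factor known for its high level in many myeloid leukaemias, exceeded HOXA10, at 19.5 ± 0.768 RPKM, and HOXA7, at 18.98 ± 2.65 RPKM, in all 4 libraries. HOXA10 and HOXA7 overlapped. HOXA5 was at 12.4 ± 1.33 RPKM, HOXA6 at 4.67 ± 0.519 RPKM, HOXA3 at 3.85 ± 0.364 RPKM and HOXA4 at 1.96 ± 0.314 RPKM. HOXA2, HOXA11 and HOXA13, at 0.987 ± 0.148, 0.621 ± 0.14 and 0.0234 ± 0.0278 RPKM, did not meet the threshold.

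In the B cluster 8 of 10 genes were expressed. HOXB9 gave 47.9, 39.996, 45.9 and 36.3 RPKM in replicates 1 to 4 (mean 42.5 ± 5.31). The range of HOXB9 overlapped that of HOXA9, and replicates 1 and 3 were the higher ones. HOXB3 stood at 19.8 ± 0.774 RPKM, HOXB8 at 17.4 ± 2.02 RPKM, HOXB2 at 14.9 ± 1.9 RPKM, HOXB6 at 14.6 ± 0.566 RPKM, HOXB5 at 11.2 ± 1.16 RPKM, HOXB4 at 9.62 ± 1.16 RPKM and HOXB7 at 9.59 ± 1.3 RPKM. HOXB1 and HOXB13, at the ends of the cluster, had no count, with limits of 0.0268 and 0.0191 RPKM. None of the 9 genes of the C cluster and none of the 9 of the D cluster was expressed, and 5 and 7 of them had no count. The highest of these 18, HOXC11, was at 0.0817 ± 0.046 RPKM. Many HOX genes overlap a neighbour or an antisense gene, in the B cluster 7 of 10 on the same strand, so the divisions within a cluster are less certain than the difference between clusters.

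**Figure D5:**
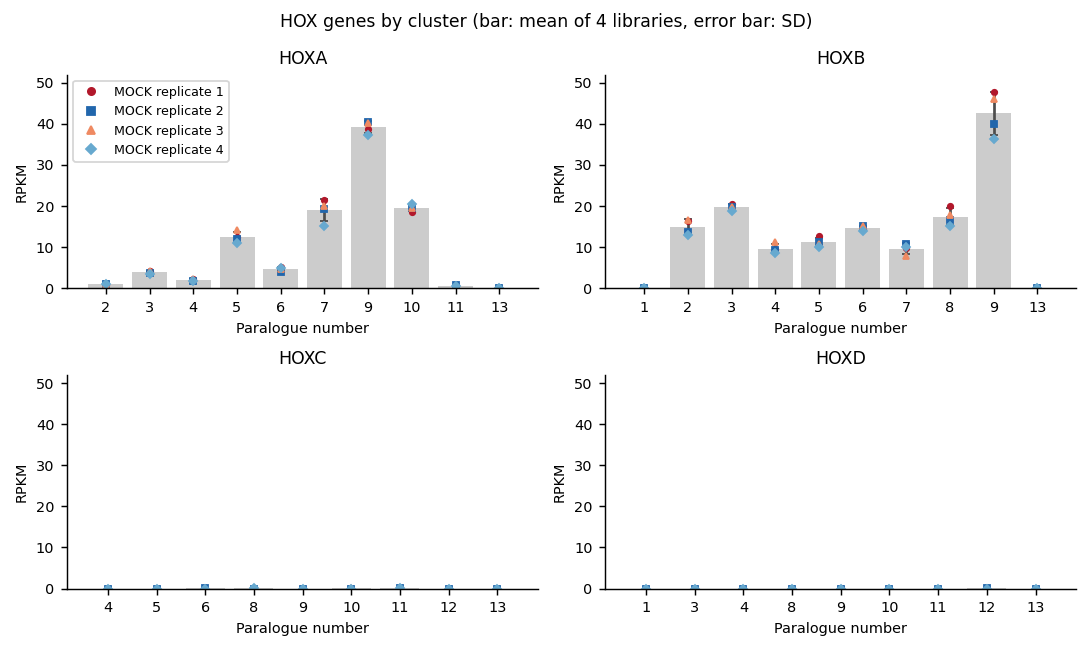
RPKM of HOX genes by cluster and paralogue number, with not every gene of the A cluster drawn; bars are means, error bars SD and symbols the 4 MOCK libraries. HOXA9 reaches 39.2 ± 1.45 RPKM and HOXB9 42.5 ± 5.31 RPKM, and no bar is visible in the C and D clusters.

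Receptors for haematopoietic cytokines were common: 44 of 60 genes were expressed, with a median of 8.23 RPKM. The values of CSF2RB in replicates 1 to 4 were 187, 183, 195 and 187 RPKM (mean 188 ± 5.1). CSF2RB, the shared beta chain for interleukin 3, interleukin 5 and GM-CSF, was the highest, with little spread. IL2RG, the shared gamma chain, was at 131 ± 17.7 RPKM, IL3RA at 64.2 ± 6.44 RPKM and the interleukin 2 receptor chain IL2RA at 57.5 ± 2.13 RPKM. Between IL3RA, IL1RL1, IL2RA and KIT the ranges of neighbours overlapped, and all 4 lay below IL2RG in each library. The partner chains of CSF2RB were unequal, since IL3RA exceeded CSF2RA, at 12.8 ± 0.729 RPKM, and IL5RA, at 0.551 ± 0.114 RPKM. The receptors for G-CSF, CSF3R, and M-CSF, CSF1R, were at 31.6 ± 1.86 and 18.6 ± 1.09 RPKM. Receptor kinases of other tissues were low or absent: MET was at 0.115 ± 0.0269 RPKM and EGFR and GHR had no count, with limits of 0.00511 and 0.0113 RPKM.

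Of 33 chemokine and chemoattractant receptors 21 were expressed, with a median of 3.61 RPKM. For CXCR4, replicates 1 to 4 gave 126, 105, 129.9 and 109.6 RPKM (mean 118 ± 12.1). CXCR4, which holds progenitors in the marrow, was the highest in all 4 libraries, again with replicates 1 and 3 on top. CCR7 was next, followed by the inflammatory chemokine receptor CCR1 at 28.9 ± 2.79 RPKM, the complement receptor C3AR1 at 23.9 ± 0.137 RPKM, the sphingosine phosphate receptor S1PR4 at 19.6 ± 3.63 RPKM and the platelet activating factor receptor PTAFR at 14.5 ± 1.23 RPKM. CCR2 and CX3CR1, which separate classical from other monocytes, were at 1.33 ± 0.305 and 0.881 ± 0.0901 RPKM.

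Nearly the whole list of leukocyte surface antigens was expressed, 93 of 100 genes, with a median of 18.3 RPKM. CD74 stood at 849, 592, 781 and 565 RPKM in the 4 replicates, in their order (mean 697 ± 139.9). CD74, the invariant chain of class II molecules, was highest and was higher in replicates 1 and 3. The small glycoprotein CD52 was at 287 ± 38.7 RPKM, the tetraspanin CD63 at 188 ± 19.6 RPKM, basigin, BSG, at 148 ± 8.92 RPKM and sialophorin, SPN, at 146 ± 13.6 RPKM. CD33, an antibody target in myeloid leukaemia, was at 19.99 ± 1.04 RPKM, CLEC12A at 35.4 ± 1.56 RPKM and CD38 at 20.6 ± 0.923 RPKM. ANPEP, which encodes the myeloid antigen CD13, was at 133 ± 14.9 RPKM and the integrin ITGAM, or CD11b, at 13.3 ± 0.575 RPKM. The 7 that did not reach the threshold included FCGR3A, at 0.742 ± 0.114 RPKM, CD7, at 0.573 ± 0.156 RPKM, and LILRB3, at 0.275 ± 0.0541 RPKM. FCGR3A and LILRB3 have close homologues that overlap them on the same strand, so their low values are uncertain.

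Antigen presentation genes of both classes were expressed, 21 of 24, with a median of 33.8 RPKM. B2M, the light chain of class I molecules, was at 739 ± 33.6 RPKM and HLA-C at 196 ± 13.2 RPKM. HLA-DRA, the alpha chain of HLA-DR, was at 468 ± 29.9 RPKM and HLA-DRB1 at 195 ± 15.4 RPKM. CIITA, the activator of class II transcription, was at 9.69 ± 0.566 RPKM. HLA genes are highly polymorphic and alike, so the levels of single ones are uncertain.

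Secreted factors were uneven. Of 54 cytokine and chemokine genes 30 were expressed (55.6%), near the 55.5% of all protein-coding genes. Their median was 2.32 RPKM, and 7 had a mean of at least 100 RPKM. SPP1 gave 424, 527, 371 and 447 RPKM in replicates 1 to 4 (mean 442 ± 64.6). SPP1 encodes osteopontin, and replicates 2 and 4 were the higher ones. The neutrophil chemokine CXCL8 was at 273 ± 9.57 RPKM, the monocyte chemokine CCL2 at 231 ± 29.5 RPKM, CCL22, a ligand of CCR4, at 140.3 ± 16.8 RPKM, LIF at 136 ± 4.41 RPKM and TGFB1 at 134 ± 22.7 RPKM. IL6 was at 0.0646 ± 0.0361 RPKM, and CXCL9, an interferon gamma target, had no count, with a limit of 0.0242 RPKM. All 9 genes of the phagocyte oxidase and its partners were expressed, from HVCN1, the proton channel, at 7.51 ± 0.715 RPKM to the GTPase RAC2 at 368 ± 42.8 RPKM. CYBB and CYBA, the membrane subunits of the oxidase, were at 39.3 ± 2.72 and 61.3 ± 8.62 RPKM. NCF1, at 12.1 ± 1.06 RPKM, has near-identical pseudogenes.

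The enzyme that the series concerns, ribonucleotide reductase, makes the deoxyribonucleotides needed for DNA synthesis. The values of RRM2 in replicates 1 to 4 were 22.7, 25.6, 24.7 and 25.9 RPKM (mean 24.7 ± 1.42). RRM2, its S phase small subunit, was at rank 1938 of 34618, and the 4 libraries lay within a narrow range, replicate 1 lowest. RRM1, the large subunit, was at 25.8 ± 1.66 RPKM, and RRM2B, the other small subunit, at 11.1 ± 0.5002 RPKM. SAMHD1, which breaks deoxyribonucleoside triphosphates down, was at 34.3 ± 1.94 RPKM. Of 21 genes of nucleotide supply 20 were expressed, with a median of 22.9 RPKM, and thymidylate synthase, TYMS, was the highest at 71.1 ± 2.81 RPKM. NME2, at 0.315 ± 0.159 RPKM, shares its strand and span with a readthrough gene of NME1, so its low value is uncertain. CCNF, whose product marks RRM2 for degradation, was at 5.34 ± 0.216 RPKM.

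Cell cycle genes were expressed in 40 of 41 cases, with a median of 19.4 RPKM, led by the replication clamp PCNA at 113 ± 11.8 RPKM and by CDKN1A. For CDKN1A, replicates 1 to 4 gave 113, 82.8, 112 and 83.7 RPKM (mean 97.8 ± 16.9). CDKN1A encodes the inhibitor p21 and was higher in replicates 1 and 3. CCNA1, a cyclin known from myeloid progenitors and testis, was at 70.3 ± 1.68 RPKM and exceeded CCNA2, the cyclin A of dividing cells, at 31.4 ± 1.7 RPKM. The single gene under the threshold was CDKN2B, the inhibitor p15 that neighbours CDKN2A, at 0.0382 ± 0.0111 RPKM. Of 12 genes around CDKN2A on chromosome 9, 6 were expressed: KLHL9 at 11.5 ± 0.862 RPKM, CDKN2A, HACD4 at 8.97 ± 0.339 RPKM, MTAP at 5.35 ± 0.187 RPKM, FOCAD at 4.9 ± 0.334 RPKM and MLLT3 at 1.82 ± 0.201 RPKM. IFNE and DMRTA1 had no count, with limits of 0.045 and 0.0119 RPKM.

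All 35 genes recurrently altered in acute myeloid leukaemia were expressed, with a median of 19.8 RPKM, and this says nothing of whether any is altered in these cells. SRSF2 stood at 99.3, 100.4, 99.9 and 99.5 RPKM in the 4 replicates, in their order (mean 99.8 ± 0.489). SRSF2, a splicing factor, had the most even values of the group's leading genes. The survival factor MCL1 was at 85.4 ± 3.67 RPKM, the nucleolar NPM1 at 70.3 ± 5.05 RPKM, IDH2, a mitochondrial dehydrogenase, at 64.5 ± 1.7 RPKM, BCL2 at 10.4 ± 0.604 RPKM and KMT2A at 6.62 ± 0.412 RPKM.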

How the data were processed

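The 4 empty-vector libraries of cells labelled THP1 were prepared, per the labels' protocols, by a stranded poly(A) method. The submitters' processing notes list the build hg19 (GRCh37) and the tools HTSeq 0.11.2, TopHat2 and bcl2fastq 2.18.0.12, with no roles. Neither the annotation nor the use of strand in counting is given in the sources used here. The authors deposited whole-number read counts per Ensembl gene with exon lengths and RPKM values, per the file headers. Recomputing RPKM from the counts, the exon lengths and the column totals gave the deposited RPKM to within 4.7e-06, so RPKM scales with all counted reads, mitochondrial ones included.

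Levels, ranks, means and SDs were computed from the deposited RPKM with pandas 2.3.3. Symbols came from a table of current names for 32562 genes and from GENCODE 29 for 299, and 1757 IDs stayed unnamed. Of 868 entries in 31 gene lists, 865 were matched. CD24, PECAM1 and CCL23 had no match and are left out. Named genes are the 6 markers, RRM2, RRM1, RRM2B and SAMHD1, the 20 highest genes with and without mitochondrial and ribosomal protein genes, and in each list the 6 highest members and those without a count (at most 6), plus genes of the HOX clusters. Some genes that this rule names are not reported here. The defining lineage markers were written down with the lists, and other genes were chosen after their values were seen. The members and lists were chosen with earlier results of these data known. No test was made, since there is a single group, and a difference between genes is described by the order and overlap of the 4 libraries. Alternatives were other thresholds, TPM, TMM factors from edgeR 4.0.16, library sizes without mitochondrial genes, and leaving out each library.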

Additional observations from a re-analysis of the deposited data

Results flagged for a closer look

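In 6 of 196 genes looked at (3.06%), a single library stood apart from the other 3 by Dixon's criterion for 4 samples, which chance meets in about 1 in 20 groups. HACD4, an enzyme of fatty acid elongation beside CDKN2A, was at 9.48 RPKM in replicate 3 and at 8.75 to 8.84 RPKM in the others. LAPTM4B, a lysosomal membrane protein, was at 40.2 RPKM in replicate 3 and at 37.2 to 37.6 RPKM in the others. In 4 HOX genes a library with 1 or 2 counts stood against 3 without any: HOXC10 in replicate 3 (0.0384 RPKM), HOXC6 in replicate 2 (0.0495 RPKM), HOXD12 in replicate 2 (0.0478 RPKM) and HOXD9 in replicate 1 (0.0354 RPKM). All 4 lie far under 1 RPKM. With every other library at 0 the criterion was met by construction, so the rate of 1 in 20 does not apply to these 4 genes.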

How the results depend on the processing

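The number of expressed genes was 12849, and it was 14255 at 0.5 RPKM, 11243 at 2 RPKM and 12939 to 12962 with each library left out in turn. It was 14953 with TPM at the same threshold, 14561 with at least 10 counts in all 4 libraries and 13471 with a mean of at least 1 RPKM. Genes without a count numbered 9896, and 10560 to 10606 with each library left out. Leaving mitochondrial genes out lowered the share of counts in the 10 genes with the most counts from 8.62% to 4.53%. The share fell from 21.4% to 15.5% for the top 100 by counts and from 48.3% to 44.1% for the top 1000. Mitochondrial genes are among those with the most counts. With each library left out these shares were 8.16% to 9.01%, 20.9% to 21.9% and 47.98% to 48.6%. At 2 RPKM, 4 megakaryocyte genes (8 at 1 RPKM) and 1 B cell gene (4 at 1 RPKM) were expressed. TPM values were 2.86 to 3.07 times the RPKM, and 196 of 234 named genes moved by more than their SD on that scale, while ranks within a library are the same by construction. TMM scaling moved none of the 234. Leaving mitochondrial genes out of the library size gave 1.07 to 1.11 times the RPKM and moved 95 of the 234. No paired analysis was possible because a single group was described. A gene with fewer than 3 counts in the 4 libraries together could not be told from an absent one at this depth.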
